A study of Mus musculus with 8 samples.

Results

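The enzymes that write, maintain and remove DNA methylation were examined as carriers of a histone mark in mouse embryonic stem cells. The mark, H3K36me3, is a trimethylated lysine on histone H3 that lies over the bodies of transcribed genes. The methyltransferase Setd2 lays down most of it. The 9 genes were taken by name from 21887 protein-coding genes of the RefSeq annotation. They were Dnmt1, Dnmt3a, Dnmt3b, Dnmt3l, Uhrf1, Tet1, Tet2, Tet3 and Tdg, and all 9 were found, each with at least 1 listed transcript start. H3K36me3 was profiled by ChIP-seq, the sequencing of DNA bound to immunoprecipitated chromatin. The knockdown group (Dox +, genotype Setd2 knockdown) received 1 µg/ml doxycycline for 4 days, and the control group (Dox -, genotype control) received none. All cells were feeder-free mESCs, and the growth protocol gives every sample the doxycycline-inducible Setd2 knockdown. They grew as spheres on gelatin in N2B27 with LIF at 1000 U/ml and the 2i inhibitors, which hold cells in the naive state. These were PD0325901 at 1 µM against MEK and CHIR99021 at 3 µM against GSK3. Each condition had 2 ChIP and 2 input libraries. The file headers name the runs shSetD2 and shCont and put D0 in the names of both merged alignments, which the labels do not explain. Whether control cells carry a control construct, and how D0 relates to the 4 days of doxycycline, is therefore not known here. The labels name neither the knockdown sequence nor whether the line is 1 clone, and they do not say whether replicates were separate cultures.

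Peaks had been called by the authors after merging replicates, so every value below belongs to 1 peak list per condition. There was no spread between replicates and no test between conditions. In such bulk chromatin, fewer cells with the mark and less of it per cell cannot be told apart. Intervals are exact 95% intervals that cover counting error only. After removal of duplicates the caller kept 29416169 ChIP tags in knockdown and 36244210 in control. The knockdown list held 3040 peaks and the control list 30634. Setd2 itself carried no knockdown peak and 11 control peaks, which describes its chromatin and not its transcript. Of 10 naive stem cell genes the knockdown list marked 2, Tfcp2l1 and Esrrb, and the control list 9, with Dppa5a at 0. Of the other lineages the knockdown list marked no gene, and the control list marked 0 of 5 primitive endoderm, 0 of 5 fibroblast, 0 of 3 blood, 1 of 4 mesoderm, 1 of 3 neuroectoderm and 2 of 4 trophoblast genes.

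DNA methylation in mammals is placed on cytosines that precede guanines. Dnmt3a and Dnmt3b add it to unmethylated DNA, and Dnmt3l, which has lost catalytic activity, stimulates both. Dnmt1 copies the mark to the new strand after replication, guided by Uhrf1, which binds sites methylated on one strand. The Tet enzymes oxidise methylcytosine, and the glycosylase Tdg cuts out the most oxidised forms, which base excision repair then replaces. Dnmt3a and Dnmt3b read methylated H3K36 through their PWWP domains, and in embryonic stem cells Dnmt3b is drawn to gene bodies that carry H3K36me3. Both genes thus encode readers of the mark and were themselves examined as its carriers.

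A gene was counted as having a peak when the midpoint of a peak lay within its RefSeq span on mm10. By this rule 6 of the 9 genes had a knockdown peak and 8 had a control peak, where 4.95% and 41.2% of all protein-coding genes did. Dnmt3b, Dnmt3l, Uhrf1, Tet1 and Tet2 had both. Dnmt3a, Tet3 and Tdg had control peaks alone, and Dnmt1 had a knockdown peak alone. Counting any gene that shared at least 1 bp with a peak gave the same 6 and 8 genes, where 5.17% and 44.8% of all protein-coding genes qualified. Dnmt3l and Uhrf1 had 2 knockdown peaks each, and 1.02% of all protein-coding genes had 2 or more. Of the 8 genes marked in control, 5 also had a knockdown peak, against 10.6% of all marked genes. The share over all marked genes was 10.5% for genes with 1 control peak, 10.3% for 2 to 4, 10% for 5 to 9 and 17.7% for 10 or more. These ranges were set after the data had been seen, and the 9 genes had 0 to 9 control peaks. The 9 genes had a median length of 52683 bp, all protein-coding genes 17169 bp and those with a control peak 25829 bp. The part of gene length in these counts was not tested, nor whether the 9 genes differ from other marked genes. The knockdown count rests on peaks near the threshold, since 1 gene (Tet1) had a knockdown peak with a caller score of 100 or more, against 7 genes with such a control peak. Low scores are a trait of the whole knockdown list. Its median score was 77.0, and 74.8 for the peaks of the 9 genes. In control these medians were 137 and 130. A score of 98.9 already stood above 69.8% of the knockdown list.

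Called peaks covered far less of these genes in knockdown cells. The covered share, the percent of gene length under peaks, was 2.68% in knockdown and 29.4% in control over the 525556 bp of the 9 genes together. Over all protein-coding genes together it was 0.259% in knockdown and 9.37% in control. The median gene of the 9 was covered over 2.92% in knockdown and 34.3% in control. The median of all protein-coding genes was 0% in both lists. Among all protein-coding genes with a control peak it was 0% in knockdown and 37.9% in control. Among those with both peaks it was 5.84% in knockdown and 47.5% in control. In knockdown the order was Dnmt3l (16.9%), Uhrf1 (16.0%), Dnmt3b (5.08%), Tet1 (2.99%), Dnmt1 (2.92%) and Tet2 (1.54%), with Dnmt3a, Tet3 and Tdg at 0. In control the order was Uhrf1 (93.0%), Tet1 (71.1%), Tdg (66.1%), Dnmt3b (45.8%), Dnmt3l (34.3%), Tet2 (32.6%), Dnmt3a (5.97%) and Tet3 (5.34%), with Dnmt1 at 0. With the control list cut to its 3040 top-scoring peaks, Uhrf1 and Tet1 alone kept a control peak, and the share over the 9 genes was 2.68% in knockdown and 7.35% in control. No value over all protein-coding genes is given for this cut, so whether these are high or low is not known here. Without replicate spread, it cannot be said which neighbours in either order differ. The median of 34.3% belonged to Dnmt3l, so that the most covered gene in knockdown was of middle rank in control.

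**Figure D1:**
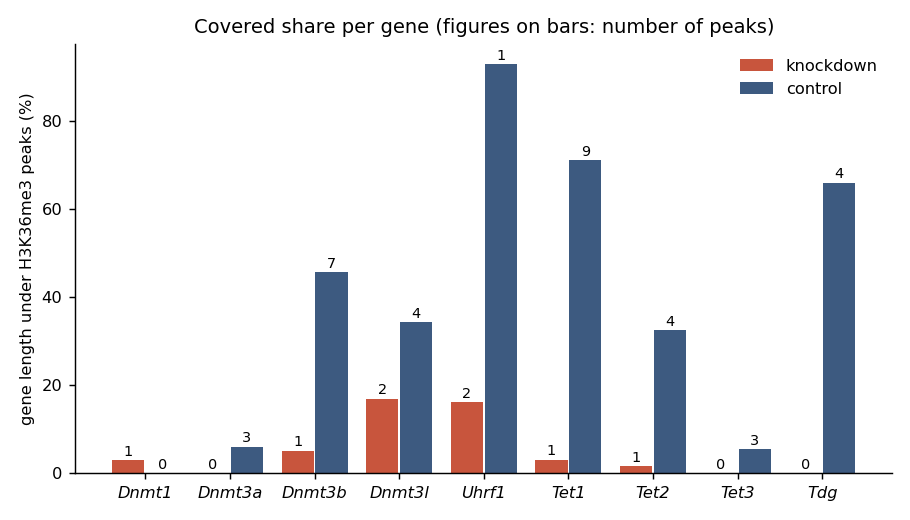
Percent of gene length under H3K36me3 peaks for each of the 9 genes, in knockdown (left bar) and control (right bar), with the number of peaks above each bar. Dnmt1 is the one gene of the 9 with a knockdown bar (2.92%) and no control bar.

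The 9 genes held 8 knockdown peaks and 35 control peaks. The knockdown peaks were short, 1257 to 2478 bp, and the control peaks 1319 to 24825 bp. None of the 8 knockdown peaks and 8 of the 35 control peaks exceeded 5 kb. Of the knockdown peaks, 7 of 8 (87.5%, 47.3 to 99.7) shared at least 1 bp with a control peak, which held for 80.6% of all knockdown peaks in protein-coding genes. In the other direction 6 of the 35 control peaks (17.1%, 6.56 to 33.7) shared at least 1 bp with a knockdown peak, as did 3.85% of all control peaks in protein-coding genes. Peaks of 1 gene are not independent of each other, and longer peaks are more easily overlapped. The 6 overlapped control peaks had a median length of 5626 bp, and the 29 others 2366 bp. The overlapped ones also had the higher median caller score, 439 against 130, and the higher median tag density, 3.12 against 2.41 times the genome-wide mean. The part of each in the overlap was not tested.

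Tag counts give the depth behind each peak. They are stated as tags per kb of peak over the genome-wide mean of the library, which was 15.7 kept tags per kb in knockdown and 19.4 in control. This quotient is called relative density below. This scaling sets each peak against its own library. No spike-in is named in the labels, so a change in the total amount of the mark is not measured. The 8 knockdown peaks of the 9 genes had relative densities of 2.02 to 2.41, with 45 to 94 tags each, and the 35 control peaks 1.95 to 3.82, with 54 to 1684 tags. The median of all peaks was 2.33 in the knockdown list and 2.38 in the control list. The lowest of all knockdown peaks had 1.91. A stretch without a knockdown peak is therefore not shown to be free of the mark, only not called.

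**Figure D2:**
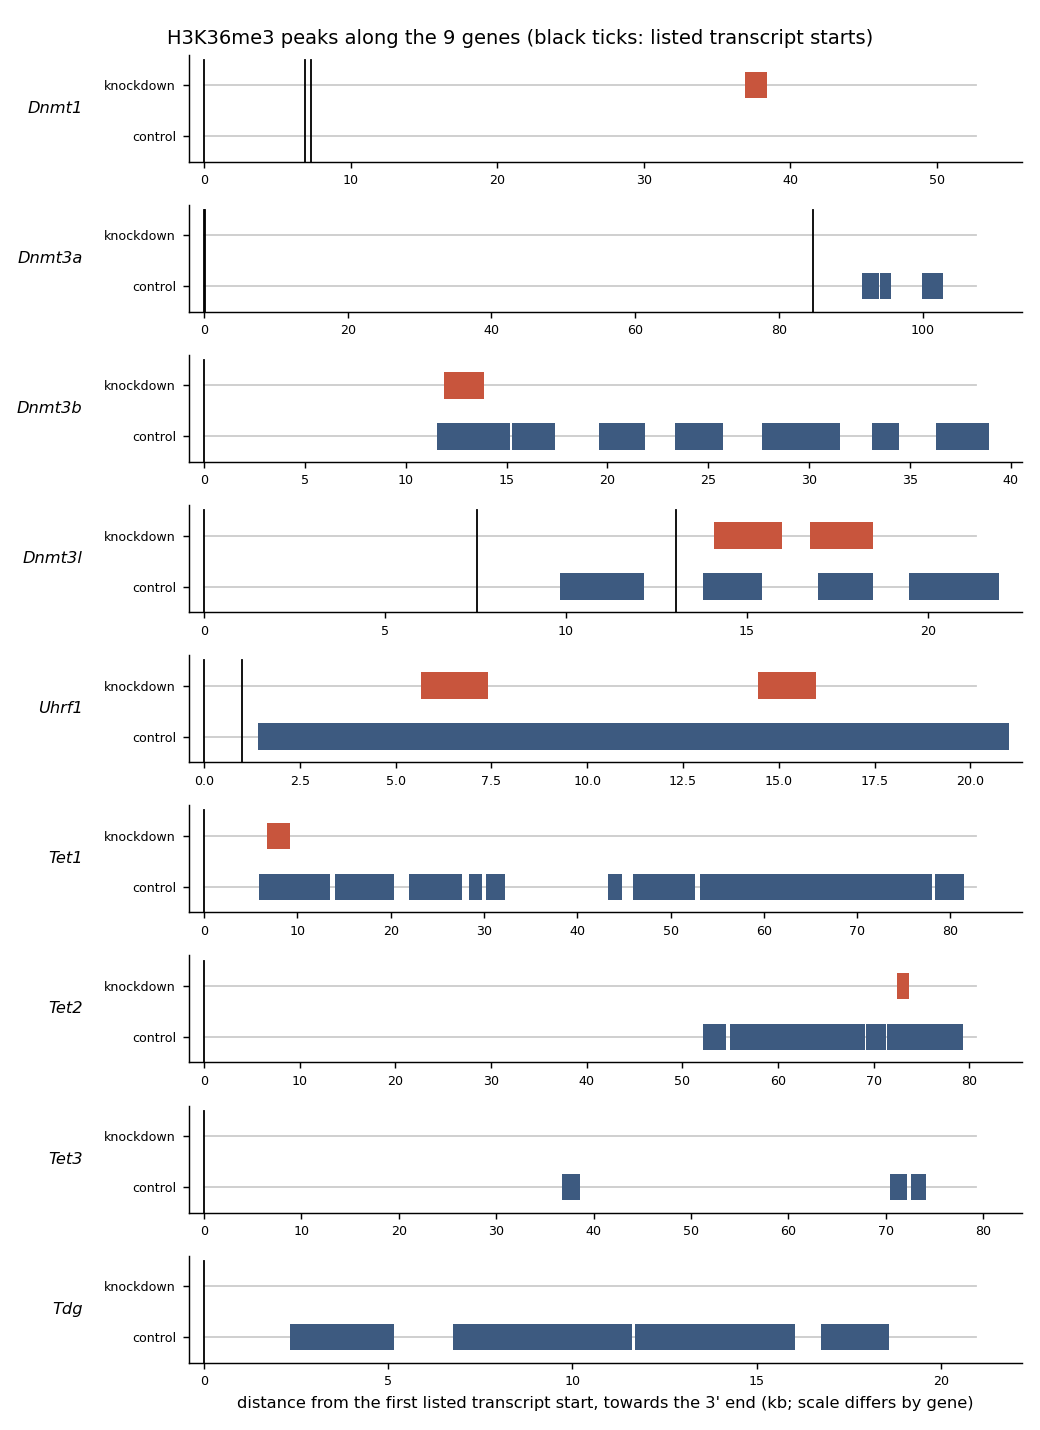
Knockdown peaks (upper row of each panel) and control peaks (lower row) along the 9 genes, as distance in kb from the first listed transcript start towards the 3' end. Black ticks mark listed starts. In Dnmt3a and Tet2 the control peaks sit at the 3' side, after long stretches without a peak.

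Among the de novo enzymes, Dnmt3a was the least marked. On the plus strand of chromosome 12 at 3801559 to 3914443, it has 3 listed starts, the last of them 84764 bp after the first. In embryonic stem cells Dnmt3a is known to be made mostly in a short form from an internal start. Dnmt3a had no knockdown peak. The 3 control peaks covered 0 of the 84765 bp between the first and the last start, and 29.7% of the 22700 bp after the last start. The nearest began 6766 bp after it. The control peaks had 112, 67 and 117 tags and relative densities of 2.44 (2.01 to 2.93), 2.43 (1.88 to 3.09) and 2.05 (1.70 to 2.46), the last of them above only 11.4% of the control list in density. The sequences at the outer and the internal start are shown because the control peaks begin only after the second of them. Each covers 250 bases before and 50 after the start in RefSeq, GRCm38.p6. Capitals mark CG, the pair of bases on which these enzymes act.
Dnmt3a first start, chr12:3806730-3807029, plus strand: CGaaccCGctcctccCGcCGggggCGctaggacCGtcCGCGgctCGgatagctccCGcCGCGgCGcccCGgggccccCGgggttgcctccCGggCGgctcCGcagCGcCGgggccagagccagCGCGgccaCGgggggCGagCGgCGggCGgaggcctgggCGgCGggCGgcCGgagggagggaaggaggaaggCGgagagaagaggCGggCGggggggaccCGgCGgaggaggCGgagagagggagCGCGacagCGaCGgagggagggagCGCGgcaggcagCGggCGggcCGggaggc
Dnmt3a internal start, chr12:3891494-3891793, plus strand: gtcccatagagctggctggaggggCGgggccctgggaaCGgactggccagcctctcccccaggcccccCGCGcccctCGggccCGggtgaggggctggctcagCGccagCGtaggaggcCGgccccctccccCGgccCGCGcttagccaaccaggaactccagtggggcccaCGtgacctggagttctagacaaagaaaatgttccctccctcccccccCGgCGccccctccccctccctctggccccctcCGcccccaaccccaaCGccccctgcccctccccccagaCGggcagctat
The first holds 46 CG, more than 98.3% of the 32817 RefSeq start regions cut in the same way, and the internal one 18, more than 70.3%. The median start region held 7 CG, and 94.6% held at least 1. The GC box GGGCGG, read on both strands, occurred 6 times at the first start and 2 times at the internal start, and 35.6% of all start regions held it.

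Dnmt3b had a knockdown peak at 1 place. The gene spans chromosome 2 from 153649411 to 153687730 on the plus strand. Its single knockdown peak ran from 153661364 to 153663308, 11915 to 13859 bp after the listed start, with 68 tags and a relative density of 2.22 (1.73 to 2.82). In control 7 peaks ran from 11543 bp after the start to beyond the gene end. Their relative densities were 2.15 to 2.95. The knockdown peak lay wholly inside the first control peak, which had the most tags (206), the highest relative density of the 7 (2.95, 2.56 to 3.38) and the highest caller score, 380. Knockdown over control was 0.753 (0.564 to 0.995) there. The other 6 control peaks had no knockdown counterpart. Dnmt3b-ps1, an annotated relative downstream that is also named Dnmt3c, overlapped no peak in either list.

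Dnmt3l was the one of the 5 genes marked in both lists whose matched peaks were not less dense in knockdown. It occupies 78042287 to 78063622 on the plus strand of chromosome 10, where its 5' end overlaps Aire, a gene with no peak in either list. The 2 knockdown peaks had 71 and 65 tags and relative densities of 2.39 (1.87 to 3.02) and 2.40 (1.85 to 3.06). The control peaks they overlapped had 62 tags each and relative densities of 1.96 and 2.11. Knockdown over control was 1.22 (0.856 to 1.74) and 1.14 (0.790 to 1.64), so neither difference exceeded counting error. The overlapped control peaks were denser than only 3.60% and 19.2% of the control list. No called knockdown peak of any gene fell below 1.91, so a ratio far below 1 could not arise at these places. The 2 other control peaks, with 102 and 114 tags, had no knockdown counterpart. After the last of 3 listed starts, 43.5% of the 8288 bp was covered in knockdown and 60.2% in control. Between the first and the last start the shares were 0% in knockdown and 17.8% in control. The second start is shown because the control peaks begin 2281 bp after it, and it holds 4 CG, fewer than the median start region.
Dnmt3l second start, chr10:78049592-78049891, plus strand: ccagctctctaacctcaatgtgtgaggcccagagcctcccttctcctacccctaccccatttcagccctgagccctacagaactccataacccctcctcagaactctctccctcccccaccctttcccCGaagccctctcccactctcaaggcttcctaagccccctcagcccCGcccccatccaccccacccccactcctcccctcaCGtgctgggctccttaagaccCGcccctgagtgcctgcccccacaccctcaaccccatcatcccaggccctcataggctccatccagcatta

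Uhrf1 was the most widely marked of the 9 genes in control. It lies on the plus strand of chromosome 17 at 56303337 to 56323486. In knockdown it had 2 peaks, of 1727 and 1505 bp, with 55 and 54 tags and relative densities of 2.02 (1.53 to 2.64) and 2.28 (1.71 to 2.98). In control a single peak of 19583 bp with 1450 tags ran from 436 bp after the second listed start to beyond the gene end, at a relative density of 3.82 (3.63 to 4.02). It was denser than 98.9% of the control list. Knockdown over control was 0.530 (0.397 to 0.694) and 0.597 (0.446 to 0.783), the lowest ratios among the 7 matched knockdown peaks. Both intervals lie below 1, as do those of Dnmt3b, Tet1 and Tet2. The 2 Uhrf1 ratios share the same control peak. Called knockdown peaks of the 9 genes span only 2.02 to 2.41, so the ratio mostly follows the density of the control peak. It does not measure how much of the mark each gene lost. The second start, shown here because the control peak follows it closely, holds 33 CG, 3 copies of GGGCGG and 2 of CCAAT, and 37.4% of all start regions held CCAAT.
Uhrf1 second start, chr17:56304063-56304362, plus strand: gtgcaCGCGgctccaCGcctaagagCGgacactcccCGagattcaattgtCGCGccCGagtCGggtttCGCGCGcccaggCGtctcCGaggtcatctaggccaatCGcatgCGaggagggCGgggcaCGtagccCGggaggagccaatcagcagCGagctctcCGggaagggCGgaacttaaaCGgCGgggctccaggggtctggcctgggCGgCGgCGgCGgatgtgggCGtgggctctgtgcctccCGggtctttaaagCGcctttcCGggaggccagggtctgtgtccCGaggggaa

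Dnmt1, the maintenance enzyme, had the opposite pattern. It lies on the minus strand of chromosome 9 at 20907206 to 20959888. It had 1 knockdown peak and not a base pair under a control peak. The knockdown peak ran from 20921470 to 20923008 and began 29615 bp after the last of its 3 listed starts. It had 58 tags and a relative density of 2.40 (1.82 to 3.10), a caller score of 87.8 and a fold of 3.68 over background in the authors' table. Its score was above 61.7% of the knockdown list. The peak was not kept at an FDR of 1% or less or at a score of 100 or more, and Dnmt1 then had no peak in either list. Each of these limits left a knockdown peak in only 1 of the 9 genes. A knockdown peak without a control peak occurred in 0.585% of all protein-coding genes. The nearest control peaks lay outside the gene, 9409 bp beyond its 3' end and 5435 bp before its first start, at relative densities of 3.74 and 3.24. The control tags within the gene are not part of the peak tables, so how far control fell short of a call there was not measured. The first and the last start are shown because neither is followed by a control peak in the gene. They hold 2 and 33 CG, and Dnmt1 is known to use an upstream start in oocytes and another in somatic cells.
Dnmt1 first start, chr9:20959839-20960138, minus strand: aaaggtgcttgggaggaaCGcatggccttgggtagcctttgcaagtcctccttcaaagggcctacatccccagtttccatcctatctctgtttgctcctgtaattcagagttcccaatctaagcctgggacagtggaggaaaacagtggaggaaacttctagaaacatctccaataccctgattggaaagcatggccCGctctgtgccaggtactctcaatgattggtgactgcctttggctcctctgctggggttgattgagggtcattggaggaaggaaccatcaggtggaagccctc
Dnmt1 last start, chr9:20952574-20952873, minus strand: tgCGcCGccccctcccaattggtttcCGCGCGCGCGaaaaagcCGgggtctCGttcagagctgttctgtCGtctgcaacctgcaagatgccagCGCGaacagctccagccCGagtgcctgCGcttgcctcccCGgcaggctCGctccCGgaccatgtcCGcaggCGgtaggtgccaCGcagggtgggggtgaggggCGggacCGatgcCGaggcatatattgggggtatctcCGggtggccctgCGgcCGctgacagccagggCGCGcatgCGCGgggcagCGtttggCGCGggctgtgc

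The oxidising enzymes differed among themselves. Tet1, which is abundant in embryonic stem cells, lies on the minus strand of chromosome 10 at 62804570 to 62887469. It had 1 knockdown peak of 2478 bp with 94 tags and a relative density of 2.41 (1.95 to 2.95). In control it had 9 peaks with 3640 tags in all at 3.18 (3.08 to 3.29), the longest of them 24825 bp. The knockdown peak lay in the control peak nearest the start, 6775 to 9252 bp after it. Knockdown over control was 0.734 (0.582 to 0.917). The densest Tet1 control peak, at 3.76 (3.43 to 4.11) with a score of 1224, had no knockdown peak. The non-coding gene Gm51805 spans the 5' part of Tet1 and the knockdown peak, and the peak cannot be told apart between them.

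Tet2, the other Tet gene active in embryonic stem cells, was marked at its 3' side. It lies on the minus strand of chromosome 3 at 133463677 to 133545136. Its knockdown peak of 1257 bp had 45 tags and a relative density of 2.28 (1.66 to 3.05). The 4 control peaks began 52199 bp after the listed start and had relative densities of 2.31 to 3.49. The knockdown peak lay in the last of them, the densest of the 4, with a ratio of 0.652 (0.470 to 0.884).

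Tet3, known chiefly for its role in oocyte and zygote, was sparsely marked. It lies on the minus strand of chromosome 6 at 83362373 to 83457208 and had no knockdown peak. Its 3 control peaks had 73, 68 and 59 tags and relative densities of 2.10, 1.98 and 2.03, all below the control median. Tdg, the glycosylase gene, lies on the plus strand of chromosome 10 at 82629814 to 82650799. It too had no knockdown peak, although it was the third most covered of the 9 genes in control. Its 4 control peaks had 89 to 281 tags, relative densities of 2.39 to 2.99 and scores of up to 541. The annotated relatives Tdg-ps and Tdg-ps2 overlapped no peak in either list, nor did Dnmt3a-ps1 and Dnmt3l-ps1. The sources used here do not say how reads that match several places were handled, so counts over such relatives are uncertain.

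**Figure D3:**
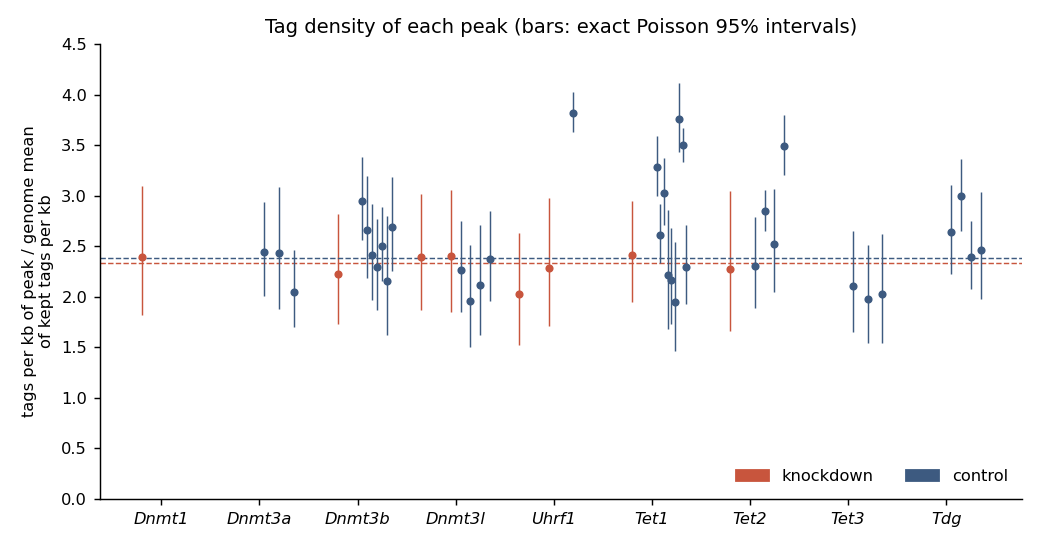
Tags per kb of peak relative to the genome mean of kept tags, for each knockdown peak (left, red) and control peak (right, blue), in 5' to 3' order within a gene; bars are exact Poisson 95% intervals and dashed lines the medians of all peaks in each list (2.33 and 2.38). The control peaks of Uhrf1, Tet1 and Tet2 reach 3.49 to 3.82, and no knockdown peak exceeds 2.41.

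Within matched peaks the ratios thus fell into a range of 0.530 to 1.22 with a median of 0.734. Over all 1117 knockdown peaks in protein-coding genes that overlapped a control peak, the median ratio was 0.715 (quartiles 0.634 and 0.837) and 9.22% exceeded 1. Of the 7 matched peaks here, 2 exceeded 1, both in Dnmt3l. Each ratio compares the mean of a short knockdown peak with the mean of the whole control peak around it, which is longer in all but Dnmt3l. The summits of matched peaks lay 22 bp apart in Tet1, 71 bp in Tet2, 1378 bp in Dnmt3b, 1050 and 232 bp in Dnmt3l, and 5666 and 3509 bp in Uhrf1. Their median of 1050 bp was above the 852 bp of all 1117 matched peaks, of which 9.85% lay within 100 bp, as did 2 of these 7. Both peaks had to pass the caller's threshold, so the ratio leaves out every place where the mark was no longer called.

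Along the genes the control peaks lay downstream of the first listed start. None of the 16 listed start regions overlapped a knockdown or a control peak, and over protein-coding genes 0.104% overlapped a knockdown peak and 1.7% a control peak. With shares this low, finding none among 16 is not particular to these genes. Each gene was cut into 10 equal parts from its first listed start to its 3' end. In knockdown at most 3 of the 9 genes were covered in any 1 part, the eighth, and the fifth and the sixth were empty in all 9. In control the mean covered share over the 9 genes was 6.56% in the first part, 35.2% in the fifth, 61.7% in the ninth and 51.0% in the last. Over 13228 protein-coding genes of at least 5 kb with a listed start, the knockdown means of the same parts were 0.126%, 0.628%, 1.01% and 0.838%. The control means over these genes were 4.64%, 22.4%, 28.6% and 28.7%. Of these genes, 7043 had some cover in control. Their knockdown means were 0.192%, 1.15%, 1.82% and 1.46%, and their control means 8.71%, 42.1%, 53.6% and 53.9%. Uhrf1 was covered over 100% in control in each of the last 9 parts, while the control peaks of Dnmt3a lay within the last 2.

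**Figure D4:**
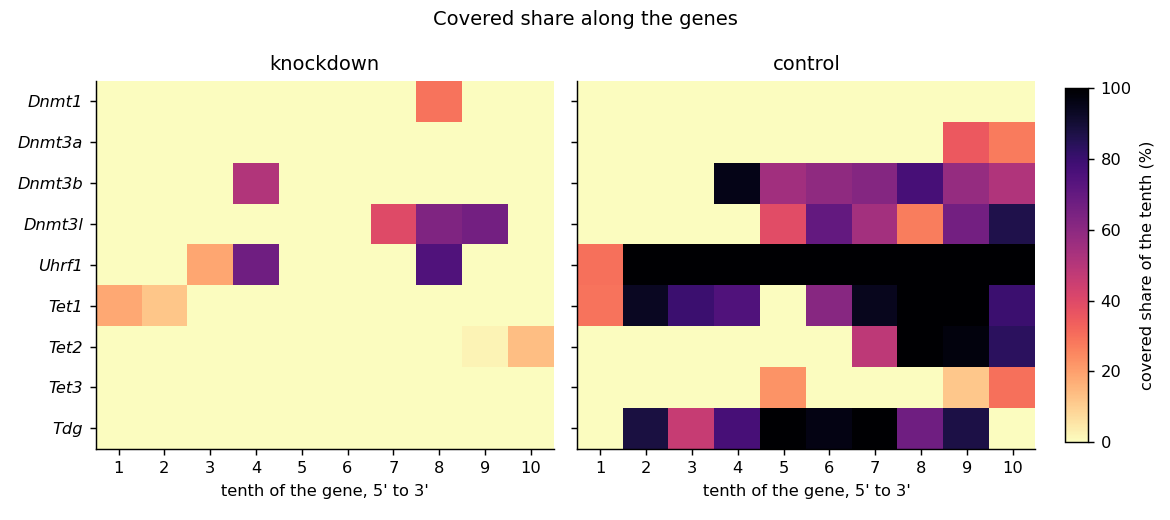
Covered share in each of 10 equal parts of the 9 genes from the first listed start (1) to the 3' end (10), knockdown on the left and control on the right, on a scale from 0 to 100%. In the ninth part 2 of the 9 genes are covered in knockdown and 8 in control, and Dnmt1 is empty in all 10 control parts.

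Of 60 further genes of the pathway, in 6 lists, 10 had a knockdown peak and 52 a control peak. Of the 52, 9 (17.3%) had both. Over all protein-coding genes, 4.95% had a knockdown peak and 41.2% a control peak. Of those with a control peak, 10.6% also had a knockdown peak. Differences of the lists from these shares were not tested. Of the genes for proteins that help Dnmt1 to maintain methylation, 2 of 8 had a knockdown peak and 8 a control peak. Hells, a remodeller, was covered over 0% in knockdown and 85.5% in control. Its activator Cdca7 had 11.6% in knockdown and 78.3% in control, and the deubiquitinase Usp7 1.92% in knockdown and 55.8% in control. Of the methyl-CpG binding proteins, 0 of 8 had a knockdown peak and 5 had a control peak, led by the glycosylase Mbd4 (79.7% in control) and by Mbd1 (45.8%).

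Among genes of methyl donor supply 2 of 8 had a knockdown peak and 8 a control peak. Mat2a, which makes S-adenosylmethionine, had 52.0% in knockdown and 92.6% in control. Ahcy, which removes the by-product of methylation, had 6.60% in knockdown and 59.6% in control, and the serine hydroxymethyltransferase gene Shmt2 0% in knockdown and 89.0% in control. Among base excision repair genes 2 of 11 had a knockdown peak and 8 a control peak. Parp1, a sensor of DNA breaks, had 17.3% in knockdown and 86.6% in control, and the ligase gene Lig3 0% in knockdown and 91.6% in control. The AP endonuclease gene Apex1 had 39.3% in knockdown and 85.5% in control. The control peak over Apex1 had its midpoint outside this short gene.

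Of the genes for Tet partners and cofactor enzymes, 0 of 10 had a knockdown peak and 8 had a control peak, with Gadd45b at 91.5% and Hcfc1 at 69.2% in control. Of the genes for proteins that guide or limit de novo methylation in these cells, 4 of 15 had a knockdown peak and 15 a control peak. Trim28, the corepressor of KRAB zinc finger proteins, had 81.0% in knockdown and 92.0% in control. Its partner Zfp57, which protects imprints, had 29.1% in knockdown and 75.7% in control. L3mbtl2, a Polycomb-related repressor, had 6.60% in knockdown and 87.2% in control, and the H3K36 methyltransferase gene Nsd1 1.54% in knockdown and 34.4% in control. In none of the 60 genes did the knockdown share exceed that of control.

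**Figure D5:**
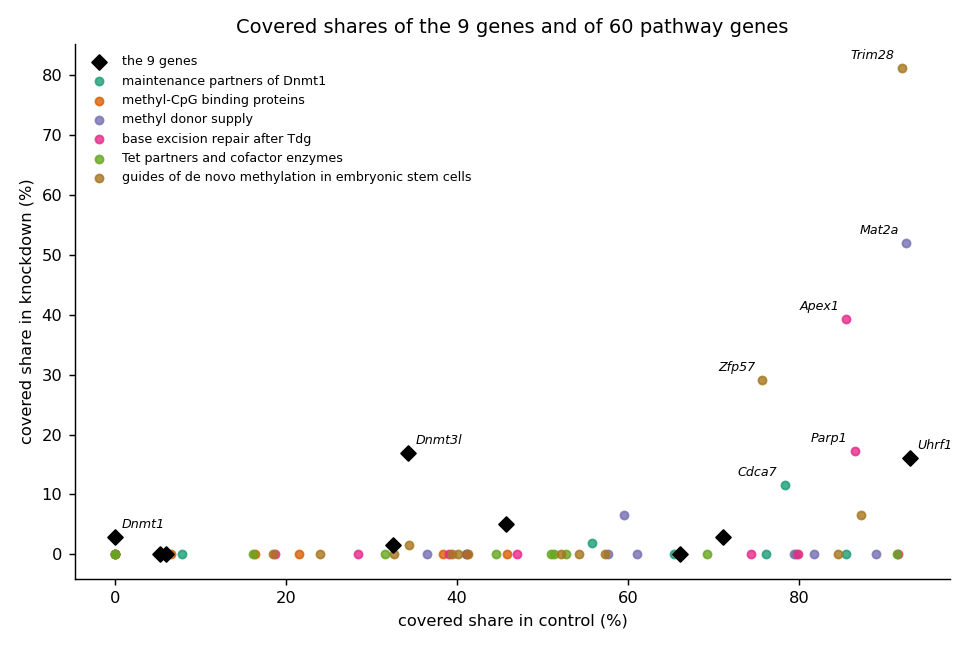
Covered share in knockdown (vertical axis) against control (horizontal axis) for the 9 genes (black diamonds) and 60 pathway genes, coloured by list. Most genes lie at 0 in knockdown; Trim28 (81.0%), Mat2a (52.0%) and Apex1 (39.3%) lie highest.

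Related gene groups were set beside the 9. Among H3K36 methyltransferase genes 1 of 8 marked in control had a knockdown peak, and among H3K36 demethylase genes 0 of 7. Among genes for H3K36me3 readers it was 1 of 11, which was Dnmt3b itself. Dnmt3a is also on that list, so the readers are not a separate group from the 9 genes. Over all protein-coding genes marked in control the share was 10.6%, and no difference from it was tested. The genes most like each of the 6 with a knockdown peak were taken over both lists, by the distance between covered shares in percentage points among genes of similar length. For Dnmt1 these were Abcc3 and Trim55 (distances of 0.174 and 0.225), for Dnmt3b Cul2 and Tmem268 (0.239 and 0.590), and for Dnmt3l Zfp990 and Vnn3 (1.84 and 3.68). For Uhrf1 they were Hsph1 and Sec61a1 (1.08 and 1.93), for Tet1 Cep192 and Anapc1 (1.36 and 1.42), and for Tet2 Galnt2 and Kntc1 (0.527 and 1.18). With only 2 values per gene, 2155 to 3767 genes of similar length were available for each match, so close neighbours are easily found.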

How the data were processed

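H3K36me3 ChIP and input libraries, 2 replicates of each in knockdown and control cells, were grouped by title and treatment. The submitters' processing notes name mm10, Bowtie 1.1.2 and FastQC 0.11.5. MACS 1.4.2 was run by the authors on merged replicates against merged inputs, per the file headers, at a p cutoff of 1e-05, with 1 tag kept per position. The deposited tables give each peak's tag count, a score of minus 10 times the log10 p, a fold over background as the authors' ratio and an empirical FDR in percent. The deposited BED files were found, by peak position, to list those peaks whose FDR was 5% or less. The larger library was scaled to the smaller by the caller, per the file headers.

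From these tables, overlaps, covered shares and intervals were computed with Python 3.11.15, pandas 2.3.3 and scipy 1.17.1, by code tested on simulated peaks. Intervals were exact Poisson for tags, exact Clopper-Pearson for shares and exact conditional binomial for ratios. Gene spans and start sequences came from RefSeq, GRCm38.p6. All 9 genes matched by symbol. Start regions hold 250 bases before and 50 after a listed start. No exon annotation was used here.

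The genes, lists and the rule for named genes (all members, and from each pathway list every gene with a knockdown peak and the 2 most covered in control) were chosen with earlier results of these data known. Alternatives varied the peak threshold, the peak rule and the gene span.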

Additional observations from a re-analysis of the deposited data

How the results depend on the processing

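The number of genes with a knockdown peak, 6, fell to 1 with an FDR of 1% or less (Dnmt3l), to 1 with a caller score of 100 or more (Tet1) and to 2 when 10% of the gene had to be covered. The covered share over the 9 genes in knockdown, 2.68%, became 0.328%, 0.472% and, with spans extended by 2 kb, 2.50%. In the knockdown table the lower-scoring Dnmt3l peak has an FDR of 1% and the Tet1 peak, with the highest score of the 8, one of 2.08%, so the FDR filter removes higher-scoring peaks. The number of genes with a control peak, 8, became 7 with a score of 100 or more and 6 when 10% of the gene had to be covered. The covered share in control, 29.4%, became 25.4% with a score of 100 or more and 27.9% with extended spans. With only the 3040 top-scoring control peaks, it became 7.35%, and 2 genes (Uhrf1 and Tet1) had a control peak in place of 8. Knockdown minus control then turned positive for Dnmt3b (5.08 percentage points), Dnmt3l (16.9) and Tet2 (1.54), because this setting leaves them no control peak. An FDR of 5% or less or an overlap of 1 bp changed none of these counts. For the stricter settings, shares over all protein-coding genes are not given. No paired analysis was possible because the authors called peaks on merged replicates, and for the same reason no replicate could be left out.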
